A study of Rattus norvegicus with 2 samples.

Results

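The genes described here are the CC chemokines Ccl2, Ccl3, Ccl5 and Ccl20, the CXC chemokines Cxcl1 and Cxcl2, the membrane-bound chemokine Cx3cl1 (fractalkine) with its receptor Cx3cr1, and the receptor Cxcr4. The members were all probe sets to which the platform annotation gives a single symbol from this list of 9 genes, and the signal in both pools described below is what drew attention to Ccl5. That selected 13 probe sets for 8 genes, of 8740 probe sets for 4736 genes that are not controls, and no probe set was named for Cxcl1.

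Chemokines are small secreted proteins that direct the migration of leukocytes, and they act through G protein-coupled receptors on the surface of those cells. They are classed by the spacing of their first cysteines into CC, CXC and CX3C chemokines. In a vessel wall, endothelium, smooth muscle, resident macrophages and infiltrating lymphocytes can all make them, and several are strongly induced by the transcription factor NF-kappaB during inflammation.

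Total RNA came from small mesenteric arteries of the first and second order of branching, the vessels that set blood flow to the gut. One group was rats with prehepatic portal hypertension made by partial ligation of the portal vein (the ligation pool), and the other was sham-operated control rats (the sham pool). Each group was 1 pool of RNA from 20 rats, read on 1 Affymetrix RG_U34A array. No value has a replicate, no test was possible, and precision is limited by having 1 array a group. The labels used here state no strain, sex, age or time after the operation.

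The values are signal intensities on a linear scale. A floor of 330.9, the 40th percentile of both arrays, stood in for a detection limit, and anything lower was raised to it before ratios were formed. Probe sets above the floor in both pools are called measured, and those above it in 1 pool give only a lower bound of the change. Of the 13 probe sets, 6 were measured, 3 were bounded and 4 lay below the floor in both pools, which left 9 probe sets of 5 genes with a value. Of those 9, 4 were higher and 5 lower in the ligation pool, beside 46.3% and 53.7% of all probe sets with a value. Signals of different probe sets depend on their probes and are not compared with each other. In RNA of whole arteries, fewer cells of a type and less RNA per cell cannot be told apart. The arrays also differed in fluidics module, 2 for sham and 1 for portal hypertension, and in the noted amount of labelled cRNA, 17 and 12.5 µg. In the record a question mark follows both amounts, and whether it stands for the unit sign or for doubt is not stated. The design gives no way to separate module and amount from the operation: these cannot be told apart.

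The tissue label was checked against marker genes. Smooth muscle genes were bright, with Tagln at 88270 in sham and 99067 after ligation on 1 probe set, Acta2 at 44983 and 38969, and Myh11 at 58648 and 53648. The endothelial marker Pecam1 gave 3409 and 3176, but Vwf was below the floor in both pools on both of its probe sets. No probe set was named for Cdh5, Cd3e or Cd68, and Alb was above the floor on 1 of its 4 probe sets. Genes of blood and fat were bright as well, and these were named after their values were seen. The erythrocyte gene Hbb read 107955 in sham and 122616 after ligation. The adipocyte gene Fabp4 read 15433 and 22032, and Lep read 11522 and 9949 on 1 probe set. The check therefore does not show that the RNA came from the vessel wall alone.

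The chemokine genes did not move as a group. Ccl5, which attracts T cells, monocytes and eosinophils, went from below the floor in the sham pool to a clear signal in the ligation pool. Cx3cl1 was lower on all 3 of its probe sets, and its receptor Cx3cr1 was higher on its only probe set. The probe sets of Ccl2 and of Cxcr4 pointed in opposite directions within each gene. Ccl3, Ccl20 and Cxcl2, chemokines best known from acute inflammation, stayed below the floor in both pools.

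**Figure D1:**
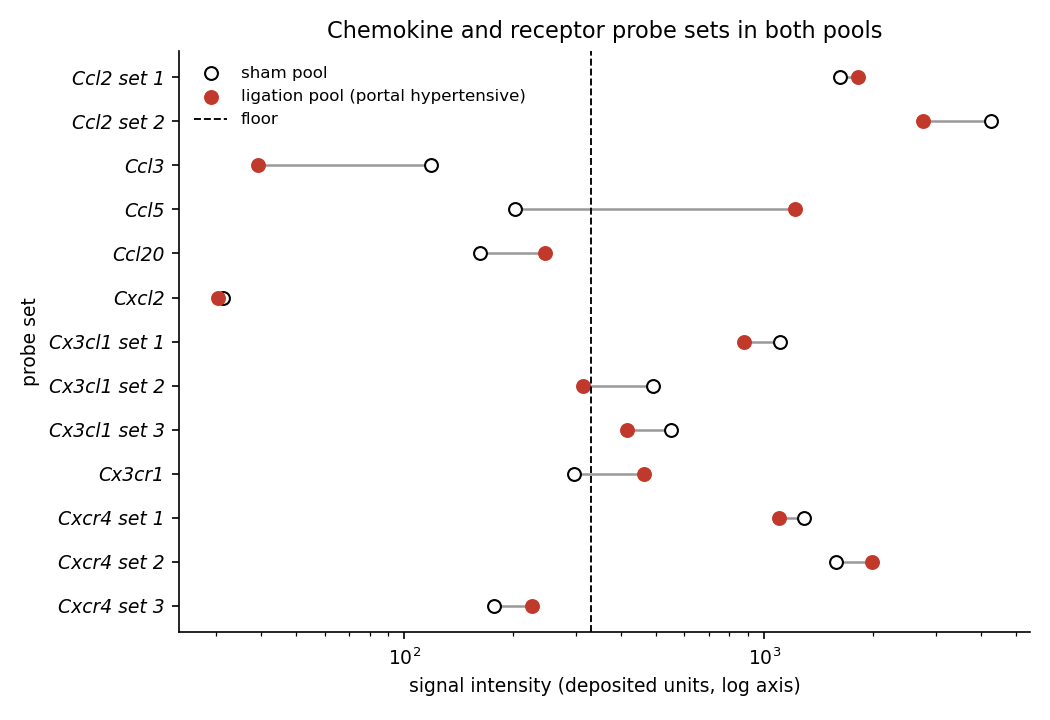
Signal intensity (log axis) of the 13 probe sets in the sham pool (open circles) and the ligation pool (filled circles), 1 array each, with no replicate and so no error bar. Ccl5 and Cx3cr1 cross the dashed floor of 330.9 upwards, and set 2 of Cx3cl1 crosses it downwards. Sets of a gene are numbered in the order in which the text gives their values.

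Ccl5 (RANTES) encodes a CC chemokine made by activated T cells, natural killer cells, platelets and stimulated stromal cells. Its probe set, rc_AI009658_at, read 203.3 in the sham and 1219.8 in the ligation pool. With the sham value raised to the floor, the signal was at least 3.69-fold higher after portal vein ligation. The gene was chosen for this change, so the values describe it and are not evidence for it. Of the 3446 probe sets at or below the floor in the sham pool, 233 (6.76%) were above it in the ligation pool, 9 (0.261%) reached at least 2 times the floor and 1 (0.029%), that of Ccl5, reached 3 times. The size of the bound follows the floor. When the 20th percentile (106.4) was the floor, both values count as measured and the quotient was 6.0, and at the 60th (889.8) the bound was 1.37-fold.

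Genes with the pattern most like that of Ccl5 were sought among the 125 genes above the floor in the ligation pool only. Likeness was the absolute difference from Ccl5 in the log2 of the ligation signal over the floor, and the sham signal served only to select the 125. Ccl5 ranked 1 by that signal, so the nearest genes are those ranked 2 to 6, at differences of 0.83 to 0.98. The nearest were Msx1 at 2.07 times the floor, Cblif at 1.96, Ino80e at 1.93, Gys2 at 1.91 and Sv2b at 1.87, against 3.69 for Ccl5. Ccl5 and Msx1 were the 2 genes of the 125 at 2 times the floor or more, and none of these 5 is a chemokine or receptor gene. In the other direction, 173 genes were above the floor in the sham pool only, and 7 of them reached 2 times the floor.

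**Figure D2:**
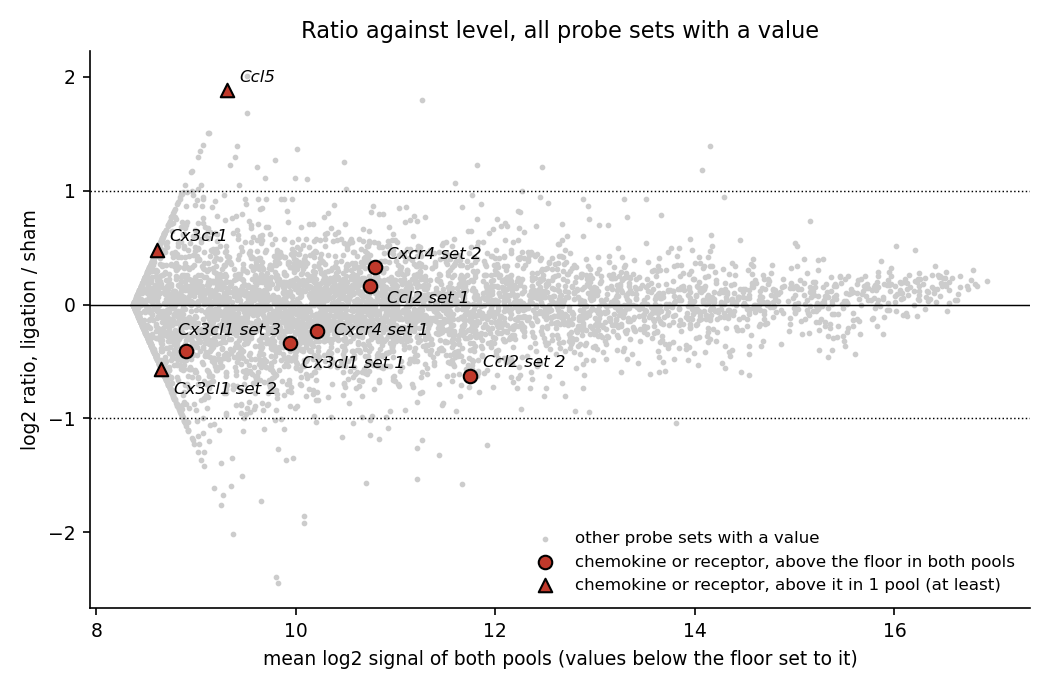
Log2 ratio of ligation over sham signal against the mean log2 signal of both pools, for the 5527 probe sets with a value (grey) and the 9 of them that belong to chemokine and receptor genes (red; triangles are lower bounds), with dotted lines at 2-fold. Ccl5 lies above the 2-fold line, and the other 8 lie between both lines.

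Ccl2 (MCP-1) encodes the main chemokine for monocytes and is made by smooth muscle, endothelium and macrophages. Its probe set X17053cds_s_at read 1627 in sham and 1818 after ligation, a log2 ratio of 0.16. Its probe set X17053mRNA_s_at read 4266 and 2767, a log2 ratio of -0.62. Both derive from the same sequence record and point in opposite directions, so it was not settled whether Ccl2 was higher or lower. Across 412 pairs of measured probe sets with the same record, the median difference between their log2 ratios was 0.20, and 23 pairs (5.58%) differed by at least the 0.78 of Ccl2.

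Ccl3 (MIP-1 alpha) encodes a CC chemokine of activated macrophages and T cells that shares receptors with Ccl5. It read 118.9 in the sham and 39.3 in the ligation pool, both below the floor. Ccl4, the next protein-coding gene to Ccl3 in the rat assembly, was also below it, at 258.5 and 134.5. The signal of neither gene was high enough to give a fold change. Among Ccl3, Ccl4 and Ccl5, only Ccl5 had a signal above the floor in either pool.

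Ccl20 encodes the ligand of Ccr6, which draws immature dendritic cells and some T and B cells to mucosal surfaces. Its signals were 162.7 and 245.1, below the floor in both pools. Cxcl2 (MIP-2), a neutrophil attractant, read 31.4 and 30.3. No difference was detectable at these signals for either gene.

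Promoter windows of members were read from RefSeq sequences of the rat assembly GRCr8, each from 250 bases before to 50 bases after the gene start, to show the NF-kappaB element by which such chemokines are known to be induced. Windows were at hand for 6 of the 9 genes. The NF-kappaB consensus, searched on both strands with overlapping matches allowed, was in 3 of them, those of Ccl20, Cxcl1 and Cxcl2, and in 7.51% of all 33469 windows of the same length. The 30 bases around the matches are given 5′ to 3′ on the strand of the gene, with the matched bases in capitals.
Ccl20 (chr9:91837060-91837089, plus strand): aatcaatgggGGAAAACCCCgggtgagaac
Cxcl1 (chr14:17479386-17479415, minus strand): cctgtgctccGGGAATTTCCCtggcctgga
Cxcl2 (chr14:17467310-17467339, minus strand): cctaagctcaGGGGATTTCCCtgatccctg
The capitals begin 89, 84 and 74 bases before the annotated start. In Cxcl1 and Cxcl2, which are neighbours in the assembly, 2 and 3 overlapping matches merge into 11 bases, while Ccl20 has 1 match. The windows of Cx3cl1, Cx3cr1 and Cxcr4 do not contain these letters, and Ccl2, Ccl3 and Ccl5 have no entry. Among genes with a match, Ccl20 and Cxcl2 were below the floor in both pools and Cxcl1 had no probe set, so no ratio stands beside these sequences. A match is a description of the letters and says nothing about binding in these arteries.

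Cx3cl1 encodes fractalkine, a chemokine on a mucin stalk that tethers monocytes and lymphocytes to endothelium and is also shed in soluble form. Its probe set AF030358_at read 1104 in sham and 876.2 after ligation. Probe set AF030358_g_at read 489.4 and 313.8, the latter below the floor, and rc_AA800602_s_at read 552.1 and 415.4. All 3 were lower in the ligation pool, with log2 ratios of -0.33, -0.56 (a bound) and -0.41 and a median of -0.41. The log2 ratios of different measured probe sets of 1 gene scattered with an SD of 0.30 (1801 probe sets of 789 genes), so the measured ratios of -0.33 and -0.41 were only slightly larger in size than that scatter. Agreement of 3 probe sets was common on these arrays: of 163 genes with exactly 3 probe sets with a value, 43 (26.4%) had all of them below 0. The first and second of these probe sets also come from the same sequence record.

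Cx3cr1, the fractalkine receptor of patrolling monocytes, tissue macrophages and cytotoxic lymphocytes, read 296.5 in the sham and 462.1 in the ligation pool. The sham value was just under the floor, which makes the signal at least 1.40-fold higher in the other pool. For a 20th percentile floor the ratio was 1.56-fold, and at the 60th neither value counted. Ligand and receptor thus lay on opposite sides of 0, which is a description of these pools.

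Cxcr4, the receptor of Cxcl12 on most leukocytes, progenitor cells and some endothelium, has 3 probe sets. U90610_at read 1287 and 1095 in the sham and ligation pools, a log2 ratio of -0.23, and U90610_g_at read 1583 and 1986, a log2 ratio of 0.33. Its last probe set, rc_AA945737_at, read 177.6 and 225.7, below the floor. The measured pair differed by 0.56, and 44 (10.7%) of the 412 same-record pairs differed by at least as much. The gene value, their median, was 0.05. No direction was settled for Cxcr4.

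At a threshold of 1.5-fold, 1 of the 9 probe sets with a value was higher (Ccl5) and 1 was lower (X17053mRNA_s_at of Ccl2), against 3.55% and 6.08% of all 5527 probe sets with a value. At 2-fold, 1 was higher and 0 were lower, against 0.561% and 1.1%. Because Ccl5 was chosen from this contrast, nothing is read from these counts. Thresholds are passed more often at low signal. In the lowest of 3 equal bins of mean level, which holds Ccl5, Cx3cr1 and sets 2 and 3 of Cx3cl1, 15.1% of probe sets were at least 1.5-fold apart, against 4.77% in the highest bin, which holds the lower Ccl2 probe set. The median log2 ratio was -0.23 over the 9 probe sets and 0.05 over the 5 genes, beside -0.03 and -0.02 over all probe sets and genes with a value.

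Of 29 other chemokine genes listed, 10 were on the array and 7 had a value, of which 5 were higher, 2 were lower and 0 were at least 1.5-fold apart, beside 3.13% of all genes that were that much higher and 5.04% that were that much lower. Their median log2 ratio was 0.16, beside -0.02 over all genes with a value. Named by the rule for high signal were Pf4, the platelet chemokine, at 20604 and 19614, Mif, a macrophage cytokine that also binds Cxcr4, with log2 ratios of 0.23 and 0.10, and Cxcl14, with 0.13 and 0.35. Cxcl10, an interferon-induced attractant of T cells, read 481.2 and 671.5, a log2 ratio of 0.48, and was named after its value was seen. Ccl11, the eosinophil attractant eotaxin, read 31 and 210.4 and Cxcl3 read 3 and 7.1, all below the floor.

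Of 24 other chemoattractant receptors listed, 10 were on the array and 4 had a value. All 4 had ratios above 0, beside 46.8% of all genes with a value, with a median of 0.18, and 0 were at least 1.5-fold apart. Ccr1, a receptor of Ccl5 and Ccl3 on monocytes and macrophages, read 1476 in sham and 1949 after ligation, a log2 ratio of 0.40. Cxcr1 gave only a lower bound, from 297.9 in sham and 375.9 after ligation. Ccr3, the eosinophil receptor that Ccl5 also binds, read 44.8 and 129.2, below the floor. Ccr2, the receptor of Ccl2, was below it too, at 151.7 and 239.6. So were Cxcr2 at 157 and 50.7, Ackr2 at 291.1 and 116.7, Cxcr5 and C3ar1, and no direction is read from such signals. Ackr3, a scavenger receptor of Cxcl12, was bright and similar in both pools, at 23224 and 24644, and the complement receptor C5ar1 had log2 ratios of 0.33 and 0.02.

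Of 11 genes of cytokines that regulate chemokines on the array, 6 had a value, 3 higher and 3 lower, with a median of -0.02. None of the 6 was at least 1.5-fold apart, beside 8.18% of all genes, but Il10 and Il13 gave only lower bounds. Tnf, at 92 and 85.5, Il6 and Ifng were below the floor on all their probe sets. Il1b had log2 ratios of -0.12 and -0.17, Il18 had 0.27 on both probe sets, and Csf1, the macrophage growth factor gene, had -0.37. Among 8 receptors and partners of these cytokines with a value, 2 were higher (Il6r and Tlr4) and 6 lower, and the median was -0.15. Of all genes with a value, 46.8% were higher. At least 1.5-fold lower were 2, beside 5.04% of all genes: Ifngr1, the interferon gamma receptor, at -0.65 and the decoy receptor Il1r2 at -0.60. Tnfrsf1a and Tlr4 had -0.06 and 0.08, and Cd14 had 0.04 and -0.32 on its probe sets.

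A list of NF-kappaB and interferon pathway genes, which also holds Stat3, Cebpb, Jun and Fos, went both ways. Of 9 with a value, 5 were higher and 4 lower (median 0.12), beside 46.8% of all genes with a value that were higher. Nfkb1, which encodes an NF-kappaB subunit, read 1835 and 2158, a log2 ratio of 0.23, and was named after its value was seen. Nfkbia, the inhibitor of NF-kappaB that is itself an NF-kappaB target, read 2366 and 3449 on 1 probe set and 2601 and 3427 on the other, log2 ratios of 0.54 and 0.40. Irf7, a factor of the type I interferon response, had 0.60 and 0.62, at least 1.5-fold higher on both. Irf3 had -0.64 on its measured probe set, Fos had -0.23, and Irf1 had -0.54 and 0.34, against each other. Klf13, known as a late activator of Ccl5 in T cells, was below the floor at 33.4 and 47.8, and was named after its values were seen.

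Proteases known to cut fractalkine from the cell surface went both ways. Adam10 read 1099 in the sham and 706.5 in the ligation pool, a log2 ratio of -0.64, and Adam17 read 1487 and 1057, a log2 ratio of -0.49 (the latter named after its value was seen), while Ctss, a macrophage protease that also cleaves fractalkine, had 0.50. Of 12 genes of chemokine cleavage and retention with a value, 7 were higher and 5 lower, with a median of 0.10. The heparan sulphate proteoglycans Sdc4 and Sdc2, which hold chemokines at the cell surface, had 0.15 over 3 probe sets and -0.24.

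Of 22 genes with a value that couple chemokine receptors to the cell, 9 were higher and 13 lower, and the median was -0.03. At least 1.5-fold apart were 0 of them, beside 8.18% of all genes with a value. Gng10 and Cdc42 had gene values of -0.03 and 0.00, and Gng5 had -0.59 and 0.11 on its probe sets. Of 4 genes listed for control of the decay of chemokine mRNA, 1 was higher and 3 were lower. Of all genes with a value, 46.8% were higher, and nothing is read from a count over 4 genes. Zfp36, which encodes a protein that promotes the decay of AU-rich mRNAs, had -0.04 and -1.03 on its probe sets, Zfp36l1 had -0.38 and -0.07, and Dusp1 had -0.19, -0.16 and a bound of -1.62.

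**Figure D3:**
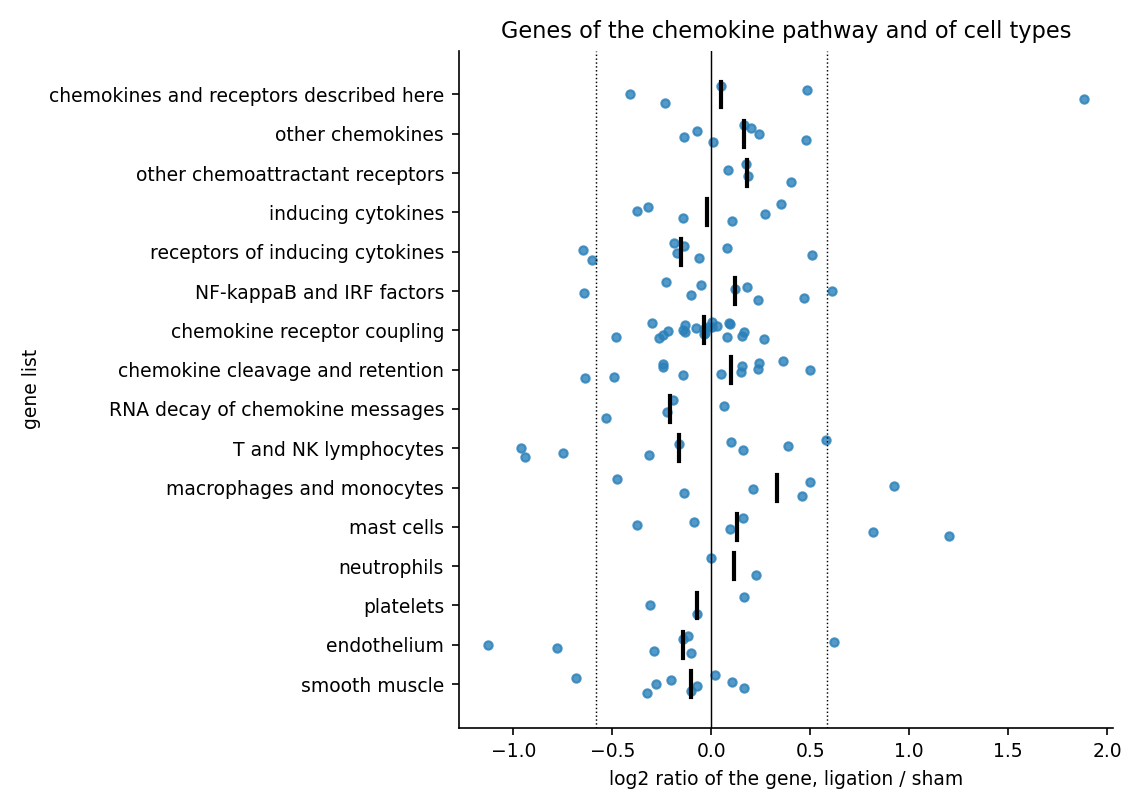
Log2 ratio of ligation over sham for each gene with a value (points) in the chemokine pathway lists and in marker lists of cell types, with the list median (bar) and dotted lines at 1.5-fold. Ccl5 is the point farthest to the right, 3 genes of the T and NK lymphocyte list lie left of the lower line, and the mast cell genes Cma1 and Cpa3 lie right of the upper one. Genes of other lists also lie beyond the lines, among them Icam2, Nos3 and Edn1 of endothelium. Of all genes with a value, 5.04% were at least 1.5-fold lower and 3.13% at least 1.5-fold higher.

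Markers of the cells that make Ccl5 or carry its receptors were not higher as a list for lymphocytes. Of 14 T and NK lymphocyte genes on the array, 9 had a value, 4 higher and 5 lower, with a median of -0.16. Cd3d, a chain of the T cell receptor complex, read 635.1 in sham and 319.8 after ligation, at least 1.92-fold lower. Cd8b read 1013 and 520.1, and Cd247, the zeta chain, read 563.3 and 334.6, log2 ratios of -0.96 and -0.75. Lck had 0.39 and Thy1, which fibroblasts also express, had 0.58. The defining genes Cd2, Cd5, Cd8a, Prf1 and Klrd1 were below the floor in both pools. Summed over the list's probe sets with a value, the signal was 9500 in sham and 9807 after ligation. That sum includes Thy1 at 2521 and 3767 and Lck at 1470 and 1922, both higher, beside the lower Cd3d, Cd8b and Cd247. Among B cell genes, Cd79b was at least 1.70-fold lower and Cd37 had 0.21, with summed signals of 1322 and 1196. The part of lymphocytes in the Ccl5 signal was not tested.

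Markers of macrophages and monocytes were higher in 4 of 6 genes with a value, beside 46.8% of all genes with a value. Their median was 0.33, with summed signals of 48251 and 58780. Lyz2, at 25530 and 29537, and Ctss, at 11699 and 16506, made up most of these sums. Fcgr2b read 683.4 and 1295, Aif1 had log2 ratios of 0.36 and 0.56, and Lyz2 had 0.21. Cd14 had 0.04 and -0.32 on its probe sets and a gene value of -0.14. Ptprc, carried by all leukocytes, had a gene value of -0.48. Its probe sets had log2 ratios from -0.63 to 0.995, so its direction was not settled. Csf1r and Itgam were below the floor in both pools. Neutrophil genes were similar, with S100a8 at 0.23, S100a9 at 0.00 and summed signals of 3103 and 3299, and so were platelet genes, with Itga2b at -0.31, Selp at 0.17 and summed signals of 23518 and 22435.

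Mast cell genes had summed signals of 10989 in the sham and 18114 in the ligation pool, a quotient of 1.65 carried by Cma1 and Cpa3. Of 6 genes with a value, 4 were higher and 2 lower, and the median log2 ratio was 0.13, below the 0.33 of macrophages. Cma1 read 3738 and 8609 and Cpa3 read 3673 and 6469, while Tpsb2 had a log2 ratio of -0.37, Tpsab1 0.10, Mcpt1 a bound of -0.09 and Fcer1a a bound of 0.16. The defining genes Kit, Ms4a2 and Hdc were below the floor in both pools. The macrophage list and the mast cell sum were thus higher in the same pool as Ccl5 and Cx3cr1. In that pool the adipocyte list (median 0.31, 5 of 6 genes higher) and the fibroblast list (0.20, 7 of 8) were higher too. The part of any of these cell types in the Ccl5 and Cx3cr1 signals was not tested. Endothelium, a source of Cx3cl1, had a median of -0.14 over 7 genes with a value and summed signals of 32008 and 28747. Of these 7 genes, 1 was higher and 6 were lower, beside 46.8% of all genes with a value that were higher. The 1 higher gene was Edn1 at 0.62, and the lowest were Icam2 at -1.13 and Nos3 at -0.78. These 3 were named after their values were seen. Nos3 had -0.78, -1.20 and 0.25 on its measured probe sets. Pecam1 had -0.10, and the smooth muscle list had a median of -0.10. The part of endothelial RNA in the lower Cx3cl1 signal was not tested.

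Scaling did not turn the sign of any member with a value. After quantile normalization or removal of a loess trend, 4 of the 9 probe sets were higher and 5 lower, as before, while the median of all probe sets moved from -0.03 to 0.00 and -0.01. The bound for Ccl5 was a log2 ratio of 1.92 and 1.91, and Cx3cl1 had medians of -0.33 and -0.37. The floor mattered more. At the 20th percentile Ccl20 counted as measured, with a log2 ratio of 0.59, Cx3cl1 AF030358_g_at had -0.64 and rc_AA945737_at of Cxcr4 had 0.35, all from signals that the main floor set aside.

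**Figure D4:**
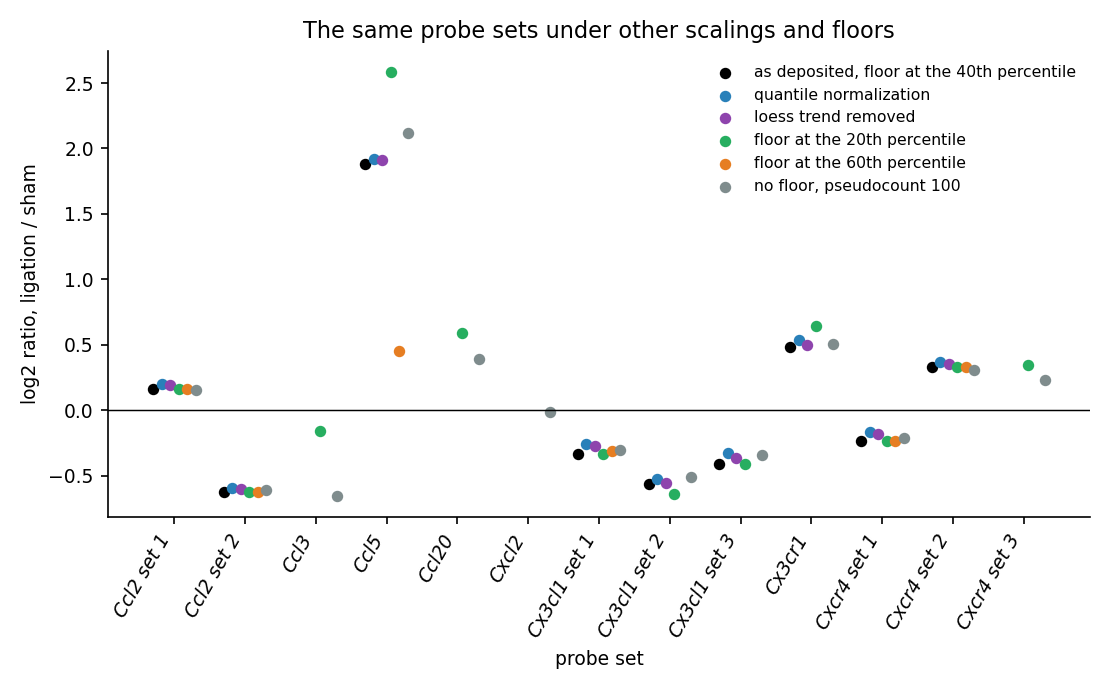
Log2 ratio of ligation over sham for each of the 13 probe sets as deposited and under 5 other settings (colours). Points of a probe set lie on the same side of 0 under the settings that give it a value, and Ccl5 ranges from 0.46 with the floor at the 60th percentile to 2.58 with the floor at the 20th.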

How the data were processed

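The deposited table gives a linear signal intensity for each probe set on each array. How the authors corrected background and scaled it is not given in the sources used here. Means without the lowest and highest 2% of values were 2499.91 in both columns, so values were used as deposited. Per the file headers, both arrays are RG_U34A with the same stain protocol. The other fields in the deposited array records are text.

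The 59 control probe sets were excluded. Of 8799 probe sets, 7018 had 1 symbol in the platform annotation, 308 had several and 1473 had no symbol. Only those with 1 symbol name a gene. All 13 member symbols matched a RefSeq gene table of GRCr8. No build is named for the array.

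Values below the floor were set to it, then log2 was taken, and ratios are ligation over sham. A gene takes the median of its probe sets that exceed the floor on 1 array or both (5527 probe sets, 3351 genes). With 1 array per group nothing was tested, and counts use thresholds of 1.5-fold and 2-fold. Members, gene lists, thresholds and alternatives were chosen with earlier results of these data known. From each pathway and leukocyte list, members at least 1.5-fold apart and the 3 with the highest level were named. Also named were the fixed tissue genes, the 5 genes nearest Ccl5 and the exceptions stated. Genes of these lists given as below the floor, and Cxcr1, Stat3, Cebpb, Jun, Tpsab1, Mcpt1 and Fcer1a, were named outside this rule. The lists of adipocytes (median 0.31), fibroblasts (0.20), erythrocytes (-0.05), perivascular nerve (-0.02), intestinal epithelium (-0.37), hepatocytes and pancreas (-0.09) and smooth muscle (-0.10) were also run, and mesothelium had no gene with a value. Calculations used Python 3.11.15, numpy 2.4.6, pandas 2.3.3 and statsmodels 0.14.6, and were tested on simulated data.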

Additional observations from a re-analysis of the deposited data

How the results depend on the processing

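Alternatives were quantile normalization, removal of a loess trend (span 0.4), floors at the 20th and 60th percentile, no floor with a pseudocount of 100, and, for genes, the probe set of highest level, measured probe sets only, or shared probe sets left out. Of 277 values recomputed, 260 stayed within 0.30 log2 units or, for counts, 1.5 times, 17 moved and 0 reversed a difference of 1.5-fold. Member probe sets at least 1.5-fold higher numbered 3 for a 20th percentile floor and 0 for a 60th, and those lower numbered 2 at the 20th and 2 without a floor. The count at least 2-fold higher was 0 for the 60th percentile, where the floor lies nearer to the Ccl5 signal by construction. The genes above the floor in the ligation pool only numbered 82 there. Marker medians that moved were T and NK lymphocytes (0.39, floor at the 60th percentile), B lymphocytes (0.21, measured probe sets only), mast cells (0.82 at the 60th percentile and 0.46 with measured probe sets only) and intestinal epithelium (0.025 at the 20th percentile and -0.024 without a floor). Their causes were not tested. Ccl2 had -0.62 when its probe set of highest level was used, in place of -0.23. No paired analysis was possible because each group has 1 array. Low signal limits Ccl3, Ccl20 and Cxcl2, for which the 40th percentile floor gives no fold.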

Other observations

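Some genes counted in the lists above, but not named there or named without values, are given here. Il13, a cytokine of type 2 immunity, read 235.1 in sham and 422.3 after ligation, at least 1.28-fold higher, and Il10, an anti-inflammatory cytokine, read 412.3 and 197.8, at least 1.25-fold lower. Il6r, the interleukin 6 receptor gene, read 940.9 and 1339, a log2 ratio of 0.51. Cd74, a receptor of Mif and a partner of class II antigen presentation, was higher on the 3 probe sets above the floor, with log2 ratios of 0.32, 0.60 and 0.36. The choice of these 4 genes was made with their values in view.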
